A study of Mus musculus with 60 samples.

Results

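RGS proteins, the regulators of G-protein signalling, shorten the signal of receptors that work through heterotrimeric G proteins. The values of 10 of their genes (Rgs2, Rgs4, Rgs6, Rgs7, Rgs8, Rgs9, Rgs10, Rgs14, Rgs16 and Rgs20) were read by symbol from a table of 24508 genes in all 18 RNA-seq libraries of mouse hippocampus. All 10 symbols were found, and all 10 passed the filter on low values, a mean of at least 0.5 RPKM over the 18 libraries. RPKM are reads per kilobase of gene model, scaled for sequencing depth. The libraries came from 9 wild-type (WT) and 9 R6/1 mice of the strain background CBA x C57BL/6, all 30 weeks old, with no treatment given in the labels. R6/1 mice express exon 1 of human huntingtin, with its CAG repeat expanded, from a transgene and serve as a model of Huntington's disease. The labels describe the libraries of each genotype as independent biological replicates and do not give the sex of the animals or the promoter of the transgene. For the place of the genes in the nucleus, the authors' lamin B1 domains were used, 1 list per genotype from 3 replicates, each a pool of 5 mice, so that a domain has no replicate spread.

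A G-protein α subunit is switched on when a receptor exchanges its GDP for GTP, and it is switched off when it hydrolyses that GTP. RGS proteins bind the active α subunit and speed this hydrolysis, so that the signals of both the α and the βγ subunits end sooner. The family falls into subfamilies. R4 proteins (here Rgs2, Rgs4, Rgs8 and Rgs16) are small, R7 proteins (Rgs6, Rgs7 and Rgs9) are stable only together with the β subunit Gnb5, R12 proteins include Rgs10 and Rgs14, and Rgs20 belongs to the RZ subfamily. In neurons these proteins are known for setting how fast responses to GABA, acetylcholine, adenosine and glutamate at G-protein-coupled receptors start and stop.

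RNA of 9 of the 10 genes was lower in R6/1 than in WT hippocampus, and none was higher, all 10 log2 fold changes being below 0. Rgs14, a scaffold with an RGS domain that is known for its high level in CA2 pyramidal neurons, fell the furthest, to 33.5% of its WT mean. The 4 R4 genes, both R12 genes and Rgs20 were lower, as were Rgs6 and Rgs7 among the R7 genes, while Rgs9 did not pass the test. Of all 14446 genes tested, 23.5% were lower in R6/1, 24.8% were higher and 48.3% differed in either direction (limma on log2(RPKM + 0.5), two-sided, Benjamini-Hochberg adjusted p under 0.05, used for every call given here). The median log2 fold change was -0.50 over the 10 genes and 0.004 over all tested genes. In 4 of the 10 genes (Rgs2, Rgs4, Rgs8 and Rgs14) all 9 R6/1 libraries lay below all 9 WT libraries, a pattern seen in 6.38% of tested genes, with 5.5% showing the opposite one. The 10 genes were named with earlier results of these data known, so these counts describe them and do not test them as a group. In bulk tissue, fewer cells of a type and less RNA per cell cannot be told apart.

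The libraries held between 12299434 and 16736544 reads on genes, recovered from the steps of the RPKM values. The value of each of the 10 genes rested on between 49 reads (Rgs16) and 3275 reads (Rgs4) per library. Scaling each library by its own total of reads, in place of the authors' size factors, changed the calls over all genes from 3586 higher and 3394 lower to 5110 higher and 2526 lower, and moved the median of all genes from 0.004 to 0.069 on the log2 scale. Under that scaling 8 of the 10 Rgs genes were called lower and none higher. WT libraries 5 and 6 had the highest summed RPKM of thalamic neuron markers, and of CA2 pyramidal neuron markers. R6/1 library 5 had the highest R6/1 sums of astrocyte and microglia markers, and also of oligodendrocyte, endothelial and pericyte, and neocortical neuron markers. Without these 3 libraries 8 of the 10 genes were called lower, Rgs6 being the exception besides Rgs9.

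The tissue label was checked against markers, and no marker list had a gene at 0 in every library. For the counts of all marker lists and of the activity-regulated genes below, the shares over all tested genes were 23.5% lower and 24.8% higher. Markers of hippocampal neurons were present and moved with genotype: 6 of 6 dentate granule, 5 of 6 CA1, 4 of 6 CA3 and 5 of 6 inhibitory neuron markers were lower in R6/1, and the summed RPKM of each of these lists was lower in all R6/1 libraries than in any WT library. The dentate granule sum ran from 63.9 to 110.9 in WT and from 29.6 to 36.4 in R6/1. All 5 tested neocortical markers and 4 of 6 oligodendrocyte markers were lower too, the former without overlap of their sums (59.4 to 84.6 and 46.6 to 54.4) and the latter with overlap (963 to 1231 and 588 to 1020). The sum of 6 choroid plexus markers ranged widely in both genotypes, from 25.8 to 1075 and from 39.0 to 1741. Their part in the results on Rgs genes was not tested.

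**Figure D1:**
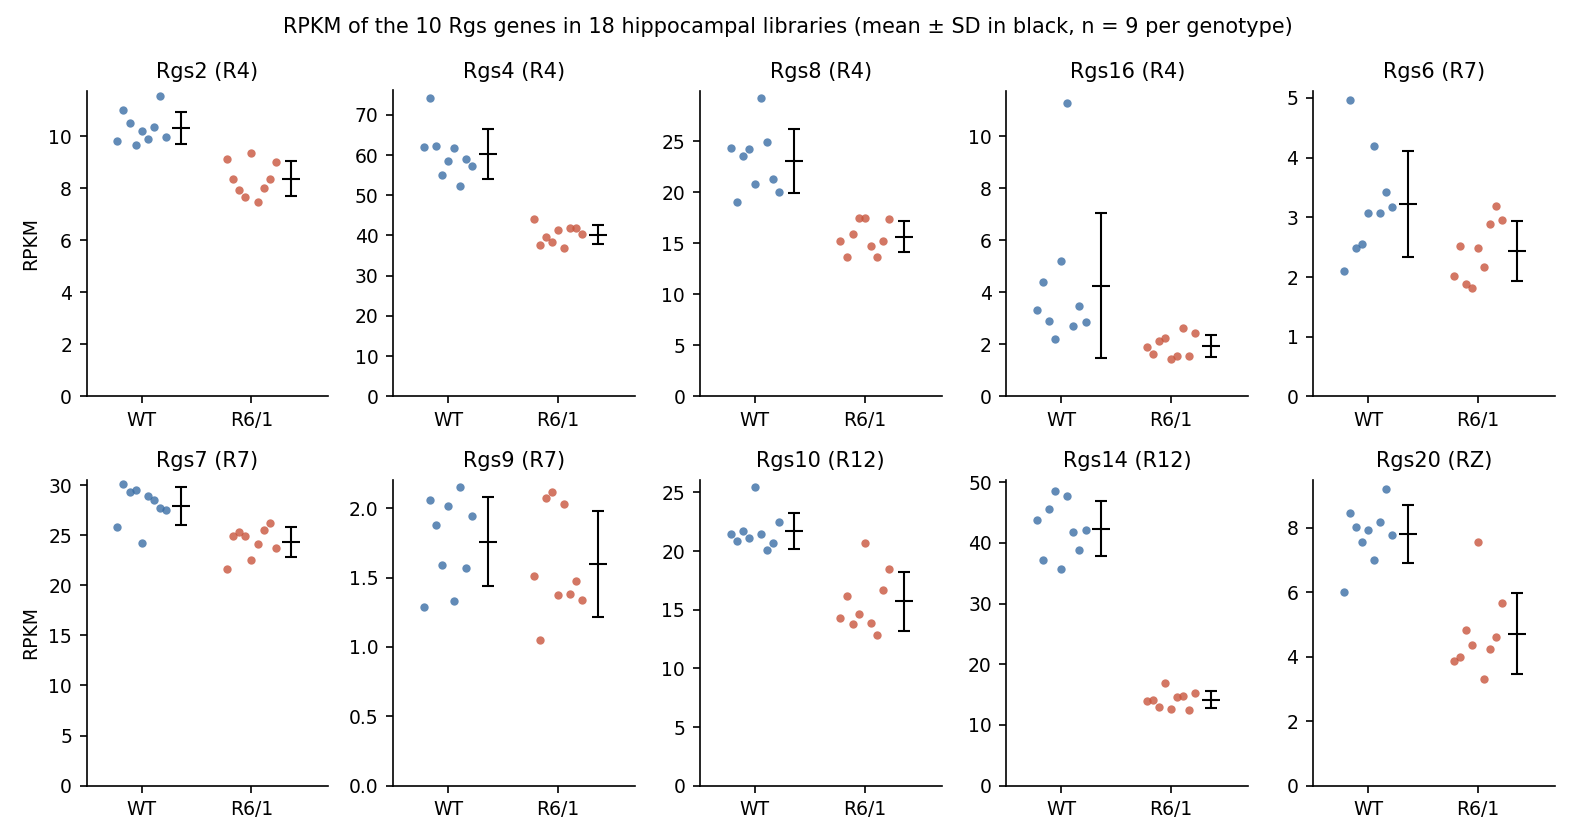
RPKM (vertical axes, each starting at 0) of the 10 Rgs genes in the 9 WT (blue) and 9 R6/1 (red) libraries, 1 point per library in the order of the replicate numbers, with mean ± SD in black. The R6/1 points of Rgs14 lie between 12.5 and 17.0 RPKM and the WT points between 35.7 and 48.6; the points of Rgs9 are mixed, and WT library 6 stands alone at the top for Rgs16.

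On build NCBIM37 (mm9) 6 of the 10 genes lie on chromosome 1: the 4 R4 genes Rgs2, Rgs4, Rgs8 and Rgs16, and Rgs7 and Rgs20. The stretch from 250 bases before to 50 bases after the gene start was taken from RefSeq (windows of assembly GRCm38.p6, placed on NCBIM37 by an exact match of the sequence). It was searched on both strands for the cAMP response element TGACGTCA, its first bases TGACG, the AP-1 motif TGANTCA and the EGR motifs GCGTGGGCG and GCGGGGGCG, all sites of factors that respond to neuronal activity. TGACG lies within TGACGTCA. Windows were found for 8 of the 10 genes (10 windows, 3 of them for Rgs8), and there was none for Rgs14 and Rgs20. Only TGACG occurred, in 3 of the 10 windows, those of Rgs2, Rgs4 and Rgs8. Of all 32851 windows, 20.8% held TGACG, 1.79% TGACGTCA, 7.81% TGANTCA, 0.612% GCGTGGGCG and 2.91% GCGGGGGCG. The 3 windows are shown because they belong to the 3 R4 genes among the 10 without overlap between the genotypes. The window of Rgs16, the R4 gene among the 10 with overlap, is shown beside them. Capitals mark TGACG on the strand of the gene or CGTCA where it lies on the other strand. The windows are Rgs2, chr1:145851230-145851529, minus strand; Rgs4, chr1:171677724-171678023, minus strand; Rgs8, chr1:155499917-155500216, plus strand; and Rgs16, chr1:155587233-155587532, plus strand.
Rgs2: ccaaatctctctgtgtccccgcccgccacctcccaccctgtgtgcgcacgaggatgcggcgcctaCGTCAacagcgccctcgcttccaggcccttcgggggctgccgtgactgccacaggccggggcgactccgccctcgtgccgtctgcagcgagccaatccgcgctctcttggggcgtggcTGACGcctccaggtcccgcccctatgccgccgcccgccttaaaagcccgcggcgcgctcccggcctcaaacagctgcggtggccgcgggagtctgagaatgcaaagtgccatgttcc
Rgs4: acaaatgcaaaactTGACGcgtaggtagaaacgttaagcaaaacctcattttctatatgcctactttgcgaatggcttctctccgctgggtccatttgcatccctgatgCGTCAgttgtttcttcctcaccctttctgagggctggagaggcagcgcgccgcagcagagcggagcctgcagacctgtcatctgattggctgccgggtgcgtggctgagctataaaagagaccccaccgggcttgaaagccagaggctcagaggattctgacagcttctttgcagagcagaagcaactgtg
Rgs8: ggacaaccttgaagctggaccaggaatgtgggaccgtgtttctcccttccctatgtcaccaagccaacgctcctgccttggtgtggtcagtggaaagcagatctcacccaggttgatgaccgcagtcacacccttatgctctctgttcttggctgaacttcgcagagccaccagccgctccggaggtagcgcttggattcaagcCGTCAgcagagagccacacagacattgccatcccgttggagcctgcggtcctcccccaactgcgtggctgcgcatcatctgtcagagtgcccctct
Rgs16: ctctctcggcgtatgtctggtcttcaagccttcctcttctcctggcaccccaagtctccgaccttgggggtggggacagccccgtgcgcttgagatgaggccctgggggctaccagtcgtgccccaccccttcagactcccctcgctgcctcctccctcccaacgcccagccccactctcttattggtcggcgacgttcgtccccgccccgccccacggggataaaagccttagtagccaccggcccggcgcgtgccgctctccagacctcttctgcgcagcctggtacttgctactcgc
Counted from the RefSeq start on which each window is built, which can differ from the GENCODE start used for the gene spans printed here, the matches stood 185 and 67 bases before Rgs2, 236 and 141 before Rgs4 and 46 before Rgs8. The Rgs2 window was rich in G and C, with 70.0% GC and 33 CpG dinucleotides, against 53.0% and 13 in the Rgs4 window, 58.3% and 12 in the Rgs8 window and 66.0% and 22 in the Rgs16 window. The median over all windows was 52.7% GC and 7 CpG. A match of letters is a description of the window and was not tested against binding data.

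Rgs4, the most abundant of the 10 genes, acts on Gi/o and Gq α subunits and dampens muscarinic and metabotropic glutamate signals. Its gene lies at chr1:171671608-171677773. Rgs4 ranged from 52.2 to 74.2 RPKM in WT libraries, with a median of 58.9, and from 36.9 to 44.2 in R6/1 libraries, with a median of 40.5. Every R6/1 library lay below every WT library, and the WT libraries were spread more widely. The mean was 60.2 ± 6.22 RPKM (SD, n = 9) in WT and 40.2 ± 2.35 in R6/1, and Rgs4 fell by 0.57 on the log2 scale (SE 0.053, limma, adjusted p = 3.27e-08). WT library 2 was the highest at 74.2 RPKM, with the next at 62.4.

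Rgs8 is known from Purkinje and other neurons for speeding the opening and closing of G-protein-gated potassium channels. Rgs8 (chr1:155500155-155544797) ranged from 19.0 to 29.2 RPKM in WT, with a median of 23.5, and from 13.6 to 17.4 in R6/1, with a median of 15.3. The genotypes did not overlap, but the lowest WT library (19.0 RPKM) and the highest R6/1 library (17.4) were close. Rgs8 fell by 0.54 on the log2 scale (SE 0.072, limma, adjusted p = 4.52e-06).

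Rgs2 prefers Gq α subunits and is transcribed soon after synaptic stimulation. The gene spans chr1:145846468-145851291. Rgs2 ranged from 9.65 to 11.6 RPKM in WT, with a median of 10.2, and from 7.48 to 9.36 in R6/1, with a median of 8.35. All R6/1 libraries lay below all WT libraries, although the difference was among the smaller ones, with R6/1 at 81.0% of the WT mean. This fall of Rgs2, -0.29 on the log2 scale, had an SE of 0.047 and an adjusted p of 4.39e-05 by limma.

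Rgs16, an R4 protein for Gi/o and Gq α subunits, was the lowest of the 4 R4 genes among the 10. Among WT libraries it was the most variable of the 10. Rgs16 (chr1:155587479-155592598) ranged from 2.21 to 11.3 RPKM in WT, with a median of 3.30, and from 1.46 to 2.62 in R6/1, with a median of 1.90. The genotypes overlapped: 8 WT libraries lay above all R6/1 libraries, and WT library 4, at 2.21 RPKM, lay within their range. WT library 6 alone reached 11.3 RPKM, with the next, WT library 5, at 5.2 and WT library 2 at 4.39. The coefficient of variation was 65.5% in WT and 22.1% in R6/1, where Rgs20 (26.6%) and Rgs9 (23.9%) varied more. By limma, Rgs16 fell by 0.83 on the log2 scale (SE 0.21, adjusted p = 0.00235). The difference was -0.65 without WT library 6 (adjusted p = 0.0006) and -0.52 without WT libraries 5 and 6 and R6/1 library 5 (limma adjusted p = 0.00204).

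The same 3 WT libraries that were highest for Rgs16 were highest for markers of thalamic neurons, which are not cells of the hippocampus. This was not particular to thalamic markers. The summed RPKM of CA2 pyramidal neuron markers was highest in the same libraries, at 251.9 in WT library 6, 218.9 in WT library 5 and 204.1 in WT library 2. The CA2 markers did not peak together. In WT library 6 Pcp4 stood at 159.9 RPKM, against a WT median of 91.75, and Cacng5 was highest there too. Necab2 was highest in WT library 5, but Amigo2 and Ptpn5 were highest in WT libraries 1 and 3. The summed RPKM of 6 thalamic markers was 98.6 in WT library 6, 47.9 in WT library 5 and 39.4 in WT library 2. Over all WT libraries it ran from 22.0 to 98.6 (median 33.6), and over R6/1 libraries from 20.7 to 33.0 (median 24.6), so that the genotypes overlapped. Of the 6 markers 3 were lower in R6/1 (Prkcd, Ramp3 and Lef1) and 3 did not pass the test, none was at 0 in every library, and the median log2 fold change was -0.46. Prkcd, the most abundant, stood at 15.1 ± 9.46 RPKM in WT and 4.11 ± 1.25 in R6/1. What part the cells of either marker list have in the Rgs16 difference was not tested.

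**Figure D2:**
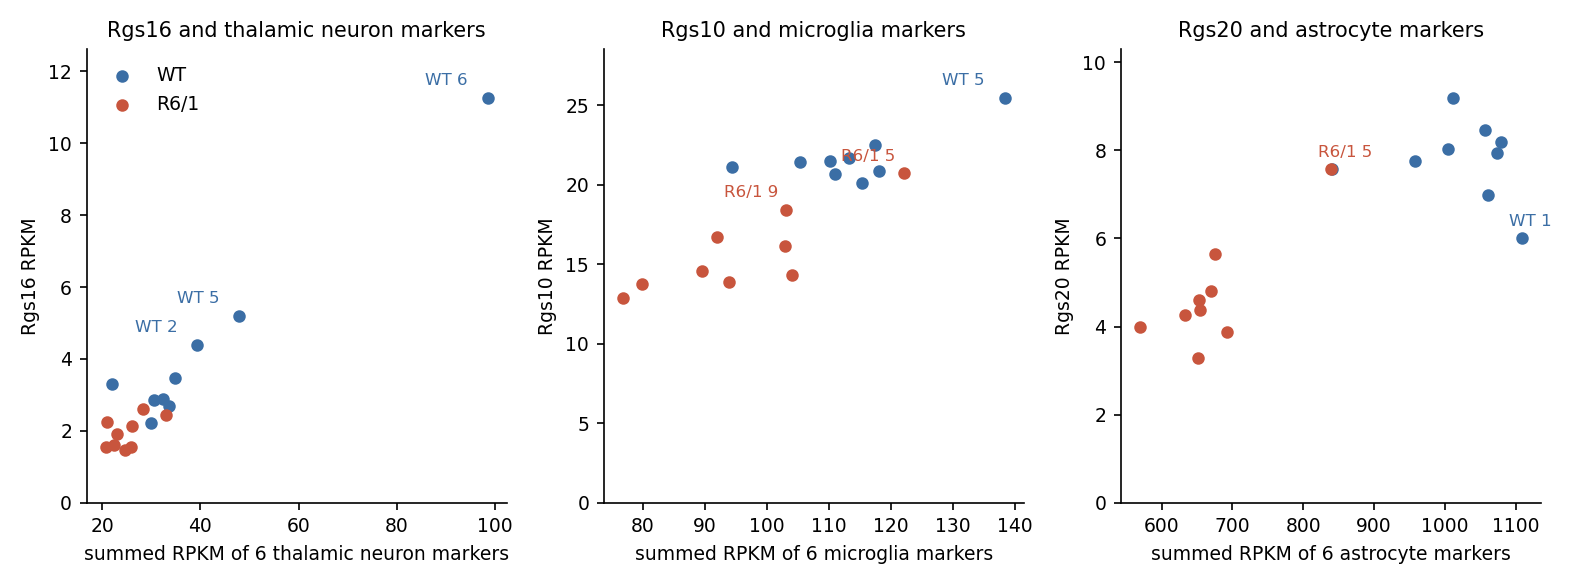
RPKM of Rgs16, Rgs10 and Rgs20 (vertical axes) against the summed RPKM of 6 thalamic neuron, 6 microglia and 6 astrocyte markers (horizontal axes), 1 point per library, WT in blue and R6/1 in red, with named libraries labelled by genotype and replicate number. WT library 6 has 11.3 RPKM of Rgs16 at a marker sum of 98.6, and R6/1 library 5 has the highest R6/1 values of both Rgs10 and Rgs20, at 20.7 and 7.57 RPKM. In the Rgs20 panel WT library 4 lies behind R6/1 library 5, at almost the same values.

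R7 proteins are held at the membrane by their partners and shut off Gi/o signals, among them those of GABA-B receptors on potassium channels. Rgs7, the main R7 gene of this tissue by RPKM, spans chr1:176989867-177421261. It ranged from 24.2 to 30.1 RPKM in WT, with a median of 28.5, and from 21.6 to 26.2 in R6/1, with a median of 24.9. The ranges overlapped, with 7 WT libraries above all R6/1 libraries and 4 R6/1 libraries below all WT libraries. Rgs7 fell by 0.20 (log2, SE 0.045, limma, adjusted p = 0.00115), and with each library's own total of reads it was -0.12 (adjusted p = 0.025).

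Rgs6, known for ending muscarinic signals in heart and brain, is a long gene at chr12:83717912-84259755 on the plus strand. Rgs6 ranged from 2.10 to 4.97 RPKM in WT, with a median of 3.07, and from 1.81 to 3.18 in R6/1, with a median of 2.49. The groups overlapped for most libraries, and WT library 1 lay near the bottom of both. On the log2 scale Rgs6 fell by 0.33 (SE 0.13, limma, adjusted p = 0.0384). This call was lost in 14 of 33 other settings, among them 8 of the 18 that left out 1 library, with an adjusted p of up to 0.112. The libraries whose absence ended it were WT 2, 6, 8 and 9 and R6/1 1, 3, 4 and 6.

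Rgs9, whose long form is the RGS protein of the striatum and whose short form belongs to photoreceptors, was the lowest of the 10 genes. Rgs9 (chr11:109086669-109159443) ranged from 1.29 to 2.15 RPKM in WT, with a median of 1.88, and from 1.05 to 2.12 in R6/1, with a median of 1.48. Libraries of both genotypes were spread over the same range. Its log2 fold change was -0.12 with a 95% interval from -0.34 to 0.11 (limma adjusted p = 0.398), so a fall of the size seen in Rgs4 lay outside the interval. Beside it, the 7 markers of striatal projection neurons, the cells known for Rgs9, held 3 that were lower and 4 that did not pass. The sum of their RPKM ran from 39.9 to 51.8 in WT libraries and from 23.2 to 30.7 in R6/1 libraries, without overlap.

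The partners of the R7 proteins did not move in 1 direction. Gnb5, the β subunit that R7 proteins need to be stable, was higher in R6/1, from 35.4 to 41.9 RPKM in WT (median 39.4) and from 43.1 to 50.7 in R6/1 (median 46.5). Every R6/1 library lay above every WT library, and Gnb5 rose by 0.23 on the log2 scale (SE 0.037, limma, adjusted p = 4.53e-05). Rgs7bp, which anchors R7 complexes at the membrane, was lower, from 47.1 to 69.4 RPKM in WT (median 54.3) and from 33.7 to 43.3 in R6/1 (median 39.3). Its genotypes did not overlap either, in the opposite order, and Rgs7bp fell by 0.56 on the log2 scale (limma, adjusted p = 9.34e-07). Gpr158, an orphan receptor that recruits Rgs7, fell by 0.24 on the log2 scale, from 26.3 ± 2.34 to 22.2 ± 1.30 RPKM (limma adjusted p = 0.000471). Rgs9bp, the anchor of Rgs9 in photoreceptors, was below the filter at 0.140 ± 0.058 RPKM in WT and 0.173 ± 0.067 in R6/1, and so was Gpr179, at 0.108 ± 0.038 and 0.230 ± 0.047.

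Rgs14 binds Gi/o α subunits through its RGS domain and again through a GoLoco motif, binds Ras proteins, and is known to restrain synaptic plasticity in CA2. The gene spans chr13:55471093-55486048 on the plus strand. Rgs14 ranged from 35.7 to 48.6 RPKM in WT, with a median of 42.1, and from 12.5 to 17.0 in R6/1, with a median of 14.1. The gap between the genotypes was wider than the whole range of either. The means were 42.4 ± 4.53 and 14.2 ± 1.43 RPKM, and Rgs14 fell by 1.54 on the log2 scale (SE 0.065, limma, adjusted p = 4.17e-13). Across all alternatives it stayed between -1.58 and -1.47.

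The log2 fold changes of other CA2 markers lay between -0.79 and -0.15. Of 5 tested markers of CA2 pyramidal neurons, 3 were lower (Pcp4, Amigo2 and Ptpn5) and 2 did not pass (Necab2 and Cacng5), with a median log2 fold change of -0.24. Pcp4, a calmodulin-binding protein, went from 98.3 ± 25.97 to 56.2 ± 11.6 RPKM (-0.79 on the log2 scale, limma, adjusted p = 6.15e-05). The summed RPKM of the CA2 markers ran from 175.5 to 251.9 in WT libraries and from 118.8 to 152.0 in R6/1 libraries. WT library 6 had the highest CA2 sum (251.9) and the second highest Rgs14 value (47.7 RPKM), after WT library 4 (48.6). Other WT libraries went the other way. WT library 5 had the second highest CA2 sum (218.9) and the lowest WT value of Rgs14 (35.7 RPKM), and WT library 4 had a CA2 sum of 177.9.

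Dentate granule neuron markers fell beside Rgs14, all 6 being lower, with a median log2 fold change of -1.65. WT libraries 4, 6 and 3, the 3 highest for Rgs14 (48.6, 47.7 and 45.5 RPKM), were also the 3 highest for the summed RPKM of these markers (102.7, 110.9 and 103.1). The lowest dentate sum was that of WT library 2 (63.9), which was second lowest for Rgs14 (37.1 RPKM). The remaining WT libraries did not keep this order. WT library 5, with the lowest WT value of Rgs14 (35.7 RPKM), had a dentate sum of 87.38. WT libraries 1 and 9 had lower sums (84.25 and 73.28) at 43.8 and 42.1 RPKM of Rgs14. The part of CA2 or dentate cells in the Rgs14 difference was not tested.

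Rgs10, a small R12 protein without further domains that is abundant in microglia and also found in neurons, lies at chr7:135517135-135562272 on the minus strand. It ranged from 20.1 to 25.5 RPKM in WT, with a median of 21.4, and from 12.9 to 20.7 in R6/1, with a median of 14.6. Only R6/1 library 5, at 20.7 RPKM, reached the WT range, and 7 WT libraries lay above it. Rgs10 fell by 0.47 on the log2 scale (SE 0.074, limma, adjusted p = 3.03e-05).

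Microglia markers were split between lower and not called. Cx3cr1 (-0.45), P2ry12 (-0.52) and Aif1 (-0.40) were lower on the log2 scale, and C1qa, Csf1r and Tmem119 did not pass, so that 3 of 6 were called, with a median of -0.27. The summed RPKM of the 6 markers ran from 94.4 to 138.4 in WT and from 76.8 to 122.1 in R6/1. WT library 5 was highest for both Rgs10 (25.5 RPKM) and this sum (138.4), and R6/1 library 5 was the highest R6/1 library for both (20.7 and 122.1). Other libraries did not follow this order. WT library 7, with the lowest WT value of Rgs10 (20.1 RPKM), had a sum of 115.4. R6/1 library 1, with the second highest R6/1 sum (104.1), had 14.3 RPKM of Rgs10. The share of microglia in the Rgs10 difference was not tested.

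Rgs20, also called RGSZ1, acts on Gz, the α subunit whose own GTP hydrolysis is slow. Its gene lies at chr1:4899657-5060366 on the minus strand, where the annotation also places 2 transcribed regions on the opposite strand. The kit was stranded, but whether the authors' counting used strand is not given in the sources used here. Rgs20 ranged from 6.01 to 9.19 RPKM in WT, with a median of 7.93, and from 3.29 to 7.57 in R6/1, with a median of 4.37. Only R6/1 library 5, at 7.57 RPKM, overlapped the WT libraries, and the next R6/1 library stood at 5.65. Rgs20 fell by 0.69 on the log2 scale (SE 0.11, limma, adjusted p = 2.84e-05).

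Astrocyte markers fell beside Rgs20. All 6 were lower in R6/1, with a median log2 fold change of -0.55. Slc1a2, the main glutamate transporter of astrocytes, went from 509 ± 46.8 to 307 ± 33.8 RPKM (-0.73 on the log2 scale, limma, adjusted p = 2.63e-08). Their summed RPKM ran from 840 to 1109 in WT libraries and from 569 to 839 in R6/1 libraries. R6/1 library 5, the highest R6/1 library for Rgs20, had the highest R6/1 sum of these markers, as it had of microglia and oligodendrocyte markers. WT library 1, with the highest sum of all (1109), had the lowest WT value of Rgs20 (6.01 RPKM). The part of astrocytes in the Rgs20 difference was not tested.

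By mean RPKM, Rgs14 stood at place 2 of the 10 genes in WT and at place 5 in R6/1. The WT order was Rgs4 (60.2), Rgs14 (42.4), Rgs7 (27.9), Rgs8 (23.0), Rgs10 (21.7), Rgs2 (10.3), Rgs20 (7.79), Rgs16 (4.25), Rgs6 (3.23) and Rgs9 (1.76). The R6/1 order was Rgs4 (40.2), Rgs7 (24.3), Rgs10 (15.7), Rgs8 (15.6), Rgs14 (14.2), Rgs2 (8.37), Rgs20 (4.71), Rgs6 (2.43), Rgs16 (1.95) and Rgs9 (1.596). Neighbours whose WT ranges did not overlap were Rgs4 and Rgs14, Rgs14 and Rgs7, Rgs10 and Rgs2, and Rgs2 and Rgs20; the other neighbours overlapped. In R6/1 the ranges of Rgs4 and Rgs7, Rgs7 and Rgs10, Rgs14 and Rgs2, and Rgs20 and Rgs6 were apart. Rgs10 exceeded Rgs8 in only 4 of 9 R6/1 libraries, and Rgs16 exceeded Rgs6 in only 5 of 9 WT libraries, so these orders are not resolved. In R6/1 the ranges of Rgs8 and Rgs14 overlapped, with Rgs8 higher in 7 of 9 libraries, so place 5 of Rgs14 there rests on the means. The sum of the 10 genes was 203 ± 9.97 RPKM in WT and 129 ± 5.39 in R6/1. Rgs14 made up 20.9% of that sum in WT and 11.0% in R6/1, Rgs4 29.7% and 31.2%, and Rgs7 13.8% and 18.9%.

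Among the other 11 Rgs genes, 7 passed the filter, of which 3 were lower, 3 higher and 1 not called (median log2 fold change 0.02). Over all tested genes 23.5% were lower and 24.8% higher. Of these 7, Rgs13 passed only through its R6/1 level, and with the filter at 2 RPKM, which leaves it out, 3 of 6 were lower and 2 higher. Rgs12, an R12 protein with a GoLoco motif like Rgs14, was lower without overlap, at 9.13 ± 0.41 RPKM in WT and 5.87 ± 0.40 in R6/1 (-0.60 on the log2 scale, limma, adjusted p = 1.05e-09). Rgs11, the remaining R7 gene, was lower at 5.73 ± 1.65 and 2.24 ± 0.49 RPKM (-1.15, adjusted p = 1.07e-05). Rgs5, an R4 gene known from pericytes, was lower at 37.5 ± 3.30 and 25.9 ± 4.50 RPKM (-0.53, limma adjusted p = 1.86e-05). Of 6 markers of endothelial cells and pericytes 1 was lower (Pdgfrb, -0.24 on the log2 scale, limma adjusted p = 0.03) and 5 did not pass.

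The remaining Rgs genes that were called went the other way. Rgs13, an R4 gene known from B cells, had a WT mean of 0.399 RPKM, under the 0.5 RPKM of the filter, and entered the test only through its R6/1 mean of 1.27, so its call is given as a description. It rested on 1 to 14 reads per WT library and 22 to 34 per R6/1 library. Its values ran from 0.054 to 0.699 RPKM in WT and from 0.973 to 1.55 in R6/1, without overlap (1.00 on the log2 scale, limma, adjusted p = 8.50e-07, and 1.57 with a pseudocount of 0.1). Rgs19, an RZ gene like Rgs20, was higher at 7.97 ± 0.63 and 9.72 ± 0.68 RPKM (0.27, limma adjusted p = 0.000179). Rgs17, the remaining RZ gene, was higher by 0.16 (limma adjusted p = 0.0309), a call that was lost in 8 of 33 other settings with an adjusted p of up to 0.105, among them those without WT libraries 4 or 5 or R6/1 libraries 4, 6, 7 or 8. Rgs3 stood at 3.42 ± 0.52 and 3.47 ± 0.39 RPKM and was not called. The other 4 were below the filter: Rgs1, Rgs18 and Rgs22 had WT means of 0.059, 0.073 and 0.225 RPKM and R6/1 means of 0.058, 0.081 and 0.195, and Rgs21 was at 0 in every library.

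**Figure D3:**
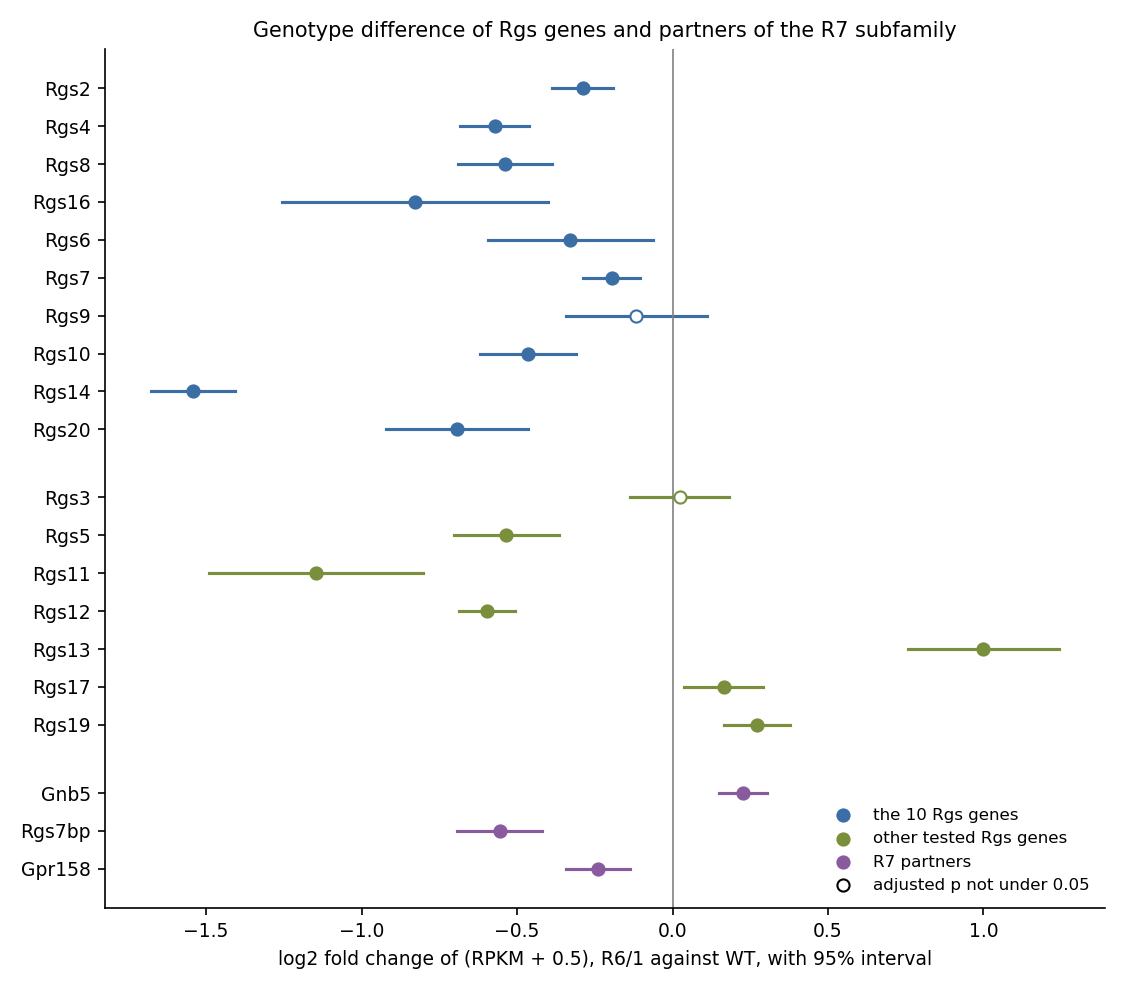
Log2 fold change of (RPKM + 0.5), R6/1 against WT, with 95% intervals (horizontal axis), for the 10 Rgs genes, the 7 other tested Rgs genes and 3 partners of the R7 proteins; filled points passed the limma test and open points did not. Rgs14 is the furthest to the left at -1.54, Rgs9 is the open point among the 10, and Rgs13 and Gnb5 lie to the right of 0.

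More distant proteins with an RGS domain include the receptor kinases. Of 12 tested, 5 were higher (Grk6, Akap10, Axin1, Arhgef11 and Snx13), 1 was lower (Axin2, a scaffold of Wnt signalling, -0.34, limma adjusted p = 0.00205) and 6 did not pass. Their log2 fold changes lay between -0.34 and 0.14, with a median of 0.04. The receptor kinase gene Grk6 had the largest rise, from 21.0 ± 1.25 to 23.2 ± 1.33 RPKM (0.14, limma adjusted p = 0.0084). For the counts of this list and of those below, the shares over all tested genes were 24.8% higher and 23.5% lower.

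The α subunits on which the Gi/o-directed RGS proteins act were mostly higher. Of 5 tested Gi/o α genes, 4 were higher (Gnai1, Gnai2, Gnai3 and Gnaz) and 1 was lower (Gnao1). Gnai3 went from 13.4 ± 0.62 to 15.9 ± 0.79 RPKM without overlap (0.24, limma adjusted p = 1.74e-05), and Gnaz, the partner of Rgs20, from 21.3 ± 1.85 to 23.9 ± 1.26 (0.17, limma adjusted p = 0.00707). Gnao1, the most abundant of them in WT, went from 90.7 ± 3.42 to 80.7 ± 4.36 RPKM (-0.17, limma adjusted p = 0.000432). Among 5 Gq and G12 α genes, Gna12, Gna15 and Gnaq were lower (-0.24, -0.24 and -0.13), Gna11 was higher (0.16) and Gna13 did not pass. Neither Gs α gene, Gnas or Gnal, passed (limma, adjusted p = 0.517 and 0.472).

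Of 13 tested β and γ genes 3 were higher and 4 lower, near the shares over all tested genes (24.8% and 23.5%). Gng3 rose without overlap, from 75.9 ± 4.02 to 109 ± 6.69 RPKM (0.52, limma adjusted p = 2.35e-09), and Gng4 rose from 10.9 ± 2.97 to 18.4 ± 1.66 RPKM (0.76, limma adjusted p = 1.3e-05). Gng7, the γ subunit known from striatal Golf signalling, fell without overlap, from 70.5 ± 6.31 to 42.3 ± 3.89 RPKM (-0.73, limma adjusted p = 4.03e-09). Gng13 fell by 0.32.

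Most receptors that were called were lower. Of 25 tested receptors that couple to Gi/o, 14 were lower, 3 higher and 8 not called, with a median log2 fold change of -0.27. Npy2r, a neuropeptide Y receptor of presynaptic terminals, went from 21.5 ± 6.73 to 7.66 ± 1.71 RPKM (-1.40, limma adjusted p = 5.93e-07), and Htr1b (-0.96), Sstr4 (-0.91) and Grm3 (-0.86) followed. The 3 that were higher were Sstr1, Oprl1 and Adra2a. Of 10 receptors that couple to Gq, 6 were lower, 1 was higher (Chrm5, 0.55) and 3 did not pass, with a median of -0.33. Chrm1, the main muscarinic receptor of the hippocampus, went from 44.4 ± 3.69 to 28.1 ± 1.79 RPKM without overlap (-0.65, limma adjusted p = 1.61e-09), beside Htr2a (-0.83), Adra1d (-0.66) and Chrm3 (-0.63).

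Effectors and other modulators completed the set. Of 7 tested effectors, 3 were lower and 4 not called: Plcb1, the phospholipase of Gq signals, went from 40.9 ± 2.48 to 28.2 ± 2.62 RPKM (-0.53, limma adjusted p = 8.86e-08), and the potassium channel genes Kcnj9 (-0.31) and Kcnj6 (-0.305) were lower as well. Of 10 genes listed as other modulators, 4 were lower, 2 higher and 4 not called, the 4 including Pcp4, which binds calmodulin and is also counted among the CA2 markers. Rasd1 (-1.50) and Rasd2 (-1.09), small GTPases that interfere with Gi signals, had the largest changes, and Gpsm1, which has GoLoco motifs like Rgs14, rose from 9.18 ± 0.86 to 12.6 ± 1.03 RPKM (0.44, limma adjusted p = 3.44e-06).

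**Figure D4:**
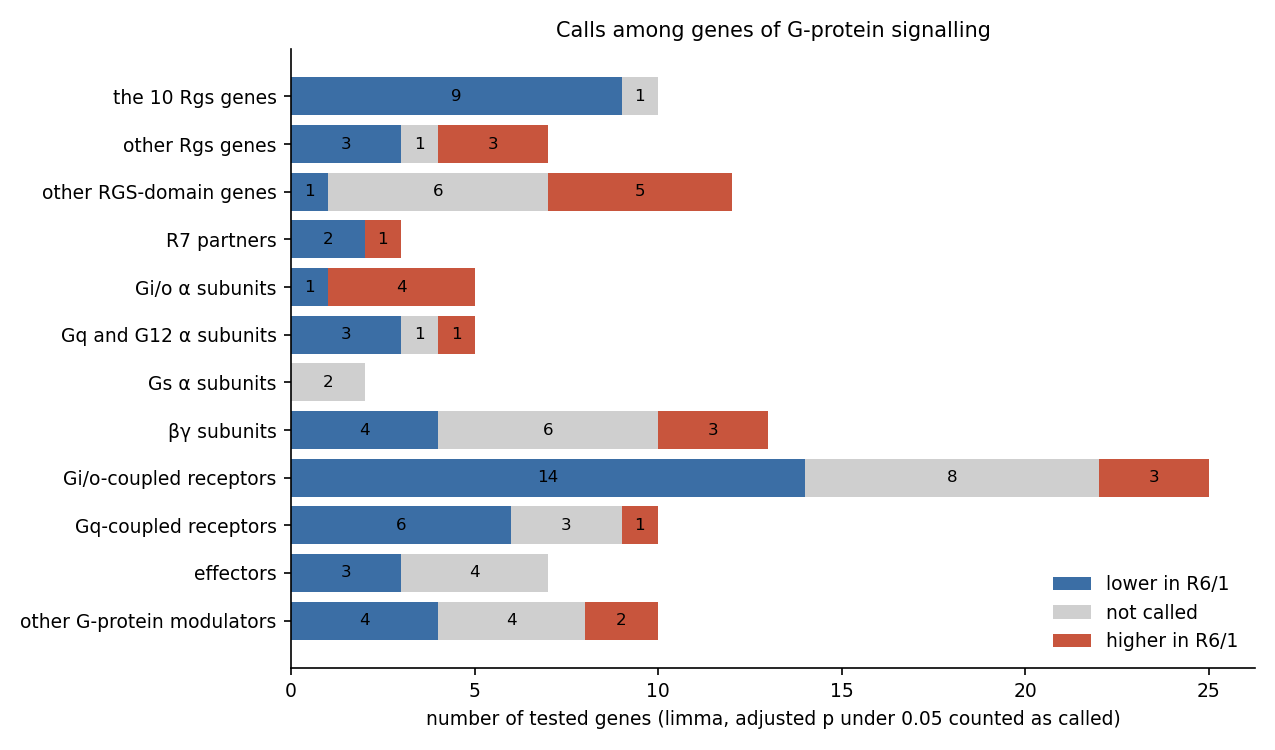
Number of tested genes (horizontal axis) called lower (blue), higher (red) or not called (grey) in R6/1 by limma, for the 10 Rgs genes and 11 lists of related genes. The 10 Rgs genes hold 9 lower and none higher, the other Rgs genes 3 and 3, and the Gi/o-coupled receptors 14 lower and 3 higher. Over all tested genes 23.5% were lower and 24.8% higher.

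Because Rgs2 and some of its relatives are transcribed after neuronal activity, each gene was related to the mean log2(RPKM + 0.5) of 13 activity-regulated genes such as Fos, Arc and Egr1. Of these 13 genes, 10 were lower in R6/1 and 3 not called, with a median log2 fold change of -0.64, and their summed RPKM overlapped between the genotypes (153.9 to 388.5 in WT, 113.7 to 252.5 in R6/1). The 20 relations (10 genes, within each genotype, 9 libraries each) were tested by exact permutation, two-sided, with Benjamini-Hochberg adjustment over the 20. Only Rgs14 in WT passed by Pearson's r, in the inverse direction: r = -0.887 (exact permutation p = 0.00152, adjusted p = 0.0304). Spearman's rank correlation for it was -0.80 (exact permutation p = 0.0138, adjusted p = 0.277), which did not pass, and r was -0.835 without the 2 libraries farthest from the median. WT libraries 2 and 5, with the highest activity means (4.40 and 4.39), had 37.1 and 35.7 RPKM of Rgs14, and WT library 4, with the lowest (2.84), had 48.6. In R6/1 the same relation had r = 0.040 (exact permutation p = 0.922) and a Spearman's rank correlation of -0.117 (exact permutation p = 0.776); the difference between the genotypes was not tested. Rgs2 in WT had r = 0.689 (exact permutation p = 0.0414, adjusted p = 0.414) and a Spearman's rank correlation of 0.65 (exact permutation p = 0.0666), which did not hold after adjustment.

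**Figure D5:**
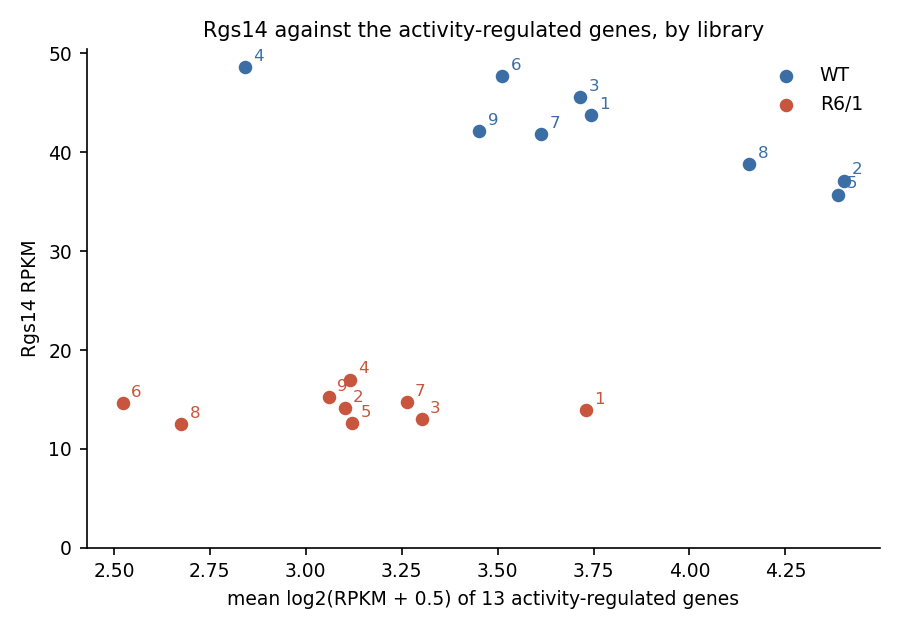
RPKM of Rgs14 (vertical axis, from 0) against the mean log2(RPKM + 0.5) of 13 activity-regulated genes (horizontal axis), 1 point per library labelled with its replicate number, WT in blue and R6/1 in red. In WT the points fall from 48.6 RPKM at 2.84 to 35.7 RPKM at 4.39, and the R6/1 points stay between 12.5 and 17.0 RPKM.

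Lamin B1 marks chromatin at the nuclear lamina, which is known to hold few transcribed genes. The authors' lists held 145 domains in WT and 166 in R6/1. The starts of 3 of the 10 genes (Rgs2, Rgs7 and Rgs20) lay in a domain of both genotypes, and those of the other 7 lay in none. Of 12827 tested genes placed on the genome, 13.0% had their start in a WT domain and 7.99% in an R6/1 domain. The 3 genes inside domains had log2 fold changes of -0.29, -0.20 and -0.69, within the range of the 7 outside. Rgs2 shares its domain (chr1:138787001-152847000 in WT, chr1:141081001-152181000 in R6/1) with Rgs1, Rgs13, Rgs18 and Rgs21, all of which had WT means under 0.5 RPKM. Rgs7bp was the exception among the partners: its start lay in a WT domain (chr13:105043001-107485000) and 234 kb from the nearest R6/1 domain. With 1 list per genotype this difference has no replicate check.

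By the mean absolute difference between centred log2(RPKM + 0.5) profiles over the 18 libraries, the 3 genes most like each called Rgs gene were found. Both genotypes enter this measure, so a like genotype difference counts towards it, and nothing follows from it about function. Rgs14 was closest to Neurod6 (0.093, from 88.7 to 29.1 RPKM), a transcription factor gene of pyramidal neurons, then Kctd4 (0.134) and Hipk4 (0.144). Rgs10 was closest to Gsap (0.089), Lpcat2 (0.090) and the microglial receptor gene Cx3cr1 (0.095). Rgs8 was closest to Plxna4 (0.068), Kctd12 (0.080) and Epha4 (0.080). Rgs4 was nearest to Tspan7, Tmem97 and Ptms, with distances between 0.067 and 0.086, and Rgs2 to Cul9, Nras and Zfp651, with distances between 0.060 and 0.064. Rgs7 was nearest to Pfn2, Ndrg3 and Wdr11 (0.052 to 0.059). Rgs20 came nearest to Nes, Stard8 and Mgll (0.135 to 0.138) and Rgs6 to Zdhhc22, Kitl and Ptprd (0.113 to 0.143). For Rgs16 the nearest genes were Ecel1, Plekhg1 and Epha8 (0.241 to 0.249). The measure is not scaled by a gene's own spread, so distances cannot be compared between Rgs genes.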

How the data were processed

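RNA-seq values of 9 WT and 9 R6/1 hippocampi (genotype as labelled) and lamin B1 domains were used; ATAC-seq was not used here. The authors deposited RPKM per gene symbol, from stranded mRNA libraries per the labels' protocols. TopHat, DESeq2 and Bowtie and the build mm9 are named in the submitters' processing notes; the counter, its strand setting and the annotation are not given in the sources used here. The steps of the deposited RPKM gave whole reads for 99.87% to 99.91% of non-zero values per library (tolerance 0.05 of a read), at 12299434 to 16736544 reads. The authors' deposited comparison table gives each gene's mean normalized count (a signal), log2 fold change, standard error, test score (not used), raw p-value and adjusted value. Each domain in the deposited lists carries a score, which was not used either; the domain caller is EDD, per the file names. No further library columns were present (0 unused).

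The main test was limma 3.58.1 (R 4.3.3; linear model with trended empirical Bayes moderation) on log2(RPKM + 0.5) over the 14446 genes that averaged 0.5 RPKM or more, with Benjamini-Hochberg adjustment over all of them and a threshold of 0.05; it was tested on simulated data. Fold changes so computed understate the change of low genes. Relations were tested by exact permutation (Python 3.11.15, numpy 2.4.6). Gene starts came from the GENCODE annotation of NCBIM37. The members and the lists of related genes and markers were chosen with earlier results of these data known. Named were all 10 members, every other Rgs gene, up to 4 called genes of largest change per list with Gnb5, Rgs7bp, Rgs9bp and Gpr158, the 3 most like genes of each called member and at most 3 markers per list, the most abundant first; Lef1, Aif1, Tmem119, C1qa, Csf1r, Amigo2, Cacng5 and the further called genes given by name to complete a count were added after their values were seen. The alternatives were pseudocounts of 0.1 and 1, no filter and one at 2 RPKM, median centring, quantile normalization, own totals of reads, limma without trend, library weights, the replicate number as a block, voom on the recovered reads, the authors' deposited table and leaving out each library. Leaving out WT libraries 5 and 6, these with R6/1 library 5, and voom with the authors' size factors were chosen after seeing the data.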

Additional observations from a re-analysis of the deposited data

Results flagged for a closer look

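In 6 of 40 sets of 9 libraries (20 Rgs genes and R7 partners in each genotype), the highest library stood apart from the next by more than Dixon's 95% critical value, as a share of the whole range; chance gives about 1 in 20 sets, or 2 of 40. Rgs16 was 11.3 RPKM in WT library 6, against 5.2 in the next. Rgs4 was 74.2 RPKM in WT library 2, against 62.4. Rgs10 was 25.4 RPKM in WT library 5, against 22.5. Rgs3 was 4.54 RPKM in WT library 6, against 3.65. Rgs5 was 36.0 RPKM in R6/1 library 5, against 27.6. Gnb5 was 50.7 RPKM in R6/1 library 4, against 46.9. Without the library in question, the limma log2 fold changes were -0.65 for Rgs16, -0.53 for Rgs4, -0.44 for Rgs10, 0.07 for Rgs3, -0.59 for Rgs5 and 0.21 for Gnb5. The adjusted p-values by limma were then 0.0006, 8.57e-09, 7.19e-05, 0.421, 4.03e-07 and 8.79e-05, so no call among the 6 changed.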

How the results depend on the processing

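Over 33 other settings, the number of the 10 Rgs genes called lower was 8 or 9, none was called higher, and 9 genes kept their call and direction wherever they were tested (Rgs9, never called, is below the filter at 2 RPKM). Rgs6 lost its call in 14 of them, with limma adjusted p-values of 0.0598 with no filter, 0.0691 with quantile normalization, 0.089 with own totals and 0.0665 with voom on reads scaled by own totals. Leaving out each library gave 8 or 9 members lower, 3 other Rgs genes lower and 2 or 3 higher, and over all genes 3236 to 3503 lower and 3422 to 3673 higher. Rgs3, not called, changed sign without WT library 9 (-0.004) and without R6/1 library 5 (-0.002), within a range from -0.004 to 0.07 over the libraries left out in turn. Over all settings, calls among all genes ranged from 2526 to 3749 lower and from 3290 to 5152 higher. Without WT libraries 5 and 6 there were 8 members lower, and also without R6/1 library 5 besides. With any base of a gene in place of its start, 3 members lay in domains of each genotype, and the pseudocount or the median of the activity list left 1 relation called. With the replicate number as a block, 9 members were lower, and 3467 genes were lower and 3666 higher; it changed no call among the Rgs genes. The labels do not say that a number is shared, and the deviations of same-numbered libraries gave no clear pairing: the correlations of the 9 pairs ran from -0.053 to 0.237, 3 of them over 0.1 (numbers 1, 3 and 8), and 4 of 18 libraries correlated best with their own number. Depth limits the lower genes most, Rgs16 resting on as few as 49 reads in a library, and intervals of counting error do not cover differences between animals.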
